A study of Mus musculus with 12 samples.

Results

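Cd47 and Cd24a encode surface proteins known as don't-eat-me signals, and their RNA was followed through adult microglia and through aged microglia separated by phosphorylation of ERK1/2. The 2 genes are 2 rows of a panel of 770 genes, picked by name after earlier results of these same samples had been seen. Their levels in the 3 groups are what chose them, so these levels and their differences are given as a description, with no test. The Neuroinflammation panel of NanoString's nCounter system was run on RNA of sorted mouse microglia; it counts individual RNA molecules with a colour-coded probe for each gene and no amplification. The groups were adult microglia from mice of 12 to 20 weeks (n = 3), aged P-ERK1/2 Low microglia (n = 4) and aged P-ERK1/2 High microglia (n = 4), the aged mice being more than 80 weeks old. A further adult sample, sample 11, was marked by the submitters as left out for poor quality and is shown apart.

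All mice were of the C57B6 strain and the labels describe mice and cells as untreated. A sample was made from 2 mice, one of each sex, whose CNS tissue was pooled. Cells were enriched with CD11b beads, fixed, permeabilized, stained for ERK1/2 phosphorylated at Thr202/Tyr204 and sorted as YFP-positive, CD45 intermediate and Ly6G-negative. The YFP reporter is driven by the promoter of Cx3cr1, a gene that monocytes and border macrophages also express. The study's legend for these data states that the mice had been given tamoxifen, which switches on the inducible Cre of its lines, recently in the adult group and long before sampling in the aged groups. Age and time since tamoxifen therefore cannot be told apart in the comparisons with adult. Adult microglia were not separated by P-ERK1/2, so the adult group is a mixture with respect to the property that divides the aged groups. Whether High and Low samples came from the same mice is not stated in the sources used here, and P-values measure the spread between these samples.

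CD47 is found on nearly all cells and binds SIRPalpha on phagocytes, which recruits the phosphatases SHP-1 and SHP-2 and holds back engulfment. In the brain this pair protects synapses from removal by microglia during development. CD24, the product of Cd24a in mice, is a small, heavily glycosylated protein anchored to the membrane by a lipid. It binds Siglec-10 in man and Siglec-G in mice, again with recruitment of SHP-1. Cd24a is abundant in immature neurons, in early B cells and in neutrophils. A microglial cell can therefore carry either protein as a signal to other phagocytes, while the receptors, Sirpa and Siglecg, were not analysed here. The gene for Cd47 lies on chromosome 16 (49851328 to 49912503) and that for Cd24a on chromosome 10 (43579169 to 43584265) of GRCm38.p6, both protein coding; the sources used here do not say which part of each RNA the probe binds.

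The panel's 770 genes together gave from 650965 to 1539936 counts per P-ERK1/2 High sample, from 123798 to 157209 per Low sample and from 137980 to 326575 per adult sample that was kept. In bulk samples fewer cells and less RNA per cell cannot be told apart. The deposited values are counts multiplied by one factor per sample that brings the geometric mean of 13 housekeeping genes to the same level, and a gene was taken as above background when its count exceeded the mean plus 2 SD of the 8 negative control probes. Of 10 microglia markers, Slc2a5 was above background in no sample, and P2ry12 and Gpr34 in no P-ERK1/2 Low sample. All 10 markers together summed to 4409 to 6301 in High, 5099 to 5602 in Low and 5699 to 6241 in adult. The markers were not even beneath these sums: with limma's p under 0.01 and a log2 difference beyond 1, 4 of the 10 were higher in High than in Low (28.2% of all genes were), namely Tmem119, P2ry12, Sall1 and Gpr34, each above background in 4 of 4 High samples but in at most 1 of 4 Low samples, so the size of their difference is not given, and 3 of the 10 were lower in Low than in adult (2.73% of all genes were). Both Cd47 and Cd24a were above background in all 12 samples.

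Cd47 was highest in P-ERK1/2 Low microglia. In that group the normalized values were 430 in sample 3, 494 in sample 6, 415 in sample 9 and 496 in sample 12, a mean of 459 ± 42.6 (SD, n = 4). In adult microglia Cd47 was 141 in sample 1, 178 in sample 4 and 247 in sample 10, a mean of 189 ± 54.0 (SD, n = 3). In P-ERK1/2 High microglia Cd47 was 144 in sample 2, 133 in sample 5, 80.9 in sample 7 and 134 in sample 8, a mean of 123 ± 28.5 (SD, n = 4). The order of the Cd47 means was therefore Low, adult, High. All 4 Low samples lay above every adult and every High sample, while adult and High overlapped, since adult sample 1 lay below High sample 2.

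**Figure D1:**
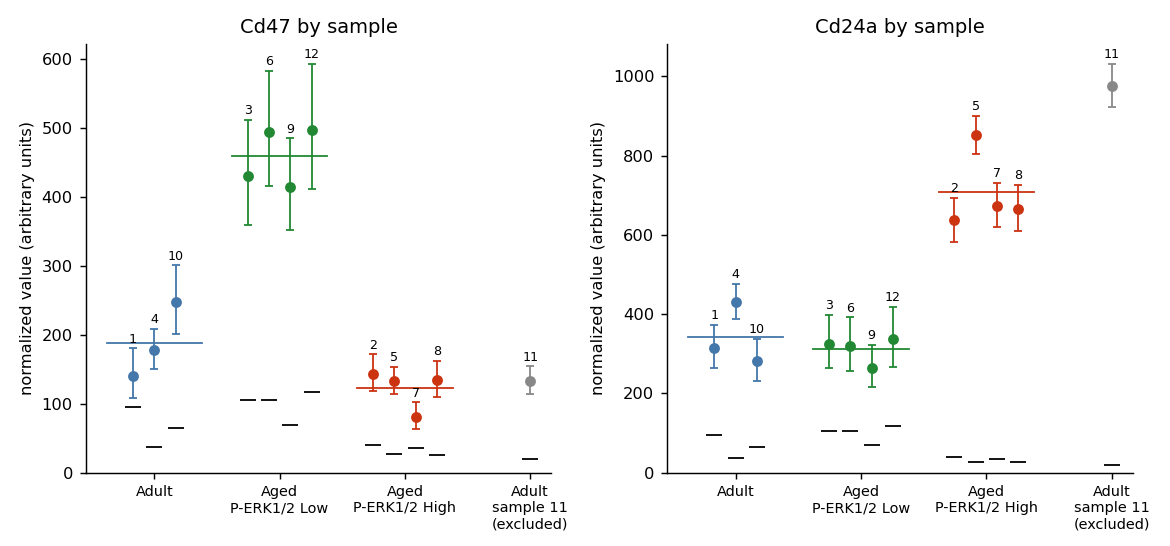
Normalized value (arbitrary units, linear axis from 0) of Cd47 (left) and Cd24a (right) in each sample, with the sample number above each point. Vertical bars are exact Poisson 95% intervals of the count, which cover counting error only, horizontal lines are group means, and short black dashes mark the background of each sample. Cd47 stands highest in the 4 P-ERK1/2 Low samples (415 to 496) and Cd24a in the 4 P-ERK1/2 High samples (637 to 851) and in the excluded adult sample 11 (976).

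Between the aged groups, Cd47 was 3.79-fold lower in P-ERK1/2 High than in P-ERK1/2 Low, a log2 difference of -1.92 (SE 0.24). The nearest samples of the 2 groups still differed 2.89-fold. High lay wholly below Low for 18.1% of all genes. Ordered by size, the Cd47 difference was number 3 from the bottom of the 770 genes, after Ptx3, a secreted pattern recognition protein (-3.00), and Bbc3, a pro-apoptotic factor (-1.97). The median log2 difference of all genes was 0.26.

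Against adult microglia, Cd47 was 2.48-fold higher in P-ERK1/2 Low, a log2 difference of 1.31 (SE 0.21), with the nearest samples 1.68-fold apart. Low lay wholly above adult for 26.1% of all genes, and by size Cd47 was the 31st highest. In P-ERK1/2 High the Cd47 mean was below that of adult by a log2 difference of -0.61 (SE 0.30), with overlapping groups. These comparisons share samples: each aged group and the adult group enter 2 of the 3. The direction against adult depended on the scaling for High: on unscaled counts the log2 difference of Cd47 was 0.46 in Low and 0.21 in High, and with scaling by the spiked positive controls 0.50 and 0.56.

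Cd24a ran the other way, with its highest values in P-ERK1/2 High. There Cd24a was 637 in sample 2, 851 in sample 5, 674 in sample 7 and 666 in sample 8, a mean of 707 ± 97.5 (SD, n = 4). In P-ERK1/2 Low it was 325 in sample 3, 319 in sample 6, 265 in sample 9 and 336 in sample 12, a mean of 311 ± 31.8 (SD, n = 4). In adult microglia Cd24a was 315 in sample 1, 431 in sample 4 and 282 in sample 10, a mean of 343 ± 78.2 (SD, n = 3). The order was High, adult, Low, and adult and Low overlapped while every High sample lay above both.

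Cd24a was 2.26-fold higher in P-ERK1/2 High than in Low (log2 difference 1.18, SE 0.21), with the nearest samples 1.89-fold apart. High lay wholly above Low for 31.3% of all genes, and the Cd24a difference was the 199th highest of 770. Against adult, Cd24a was 2.08-fold higher in High (log2 difference 1.06, SE 0.25), with the nearest samples 1.48-fold apart. High lay wholly above adult for 35.1% of all genes, and Cd24a was the 238th highest. This difference depended on the scaling, at 0.67 with median-of-ratios factors, 0.19 after quantile normalization and -0.36 with equal totals, and it was 0.67 with sample 11 counted as adult. Between Low and adult the log2 difference of Cd24a was -0.12 (SE 0.18), and without adult sample 4 it was 0.06. So the 2 genes held different places: Cd47 stood at the lower end of the High against Low ranking, and Cd24a within the broad group of genes that were higher in High.

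**Figure D2:**
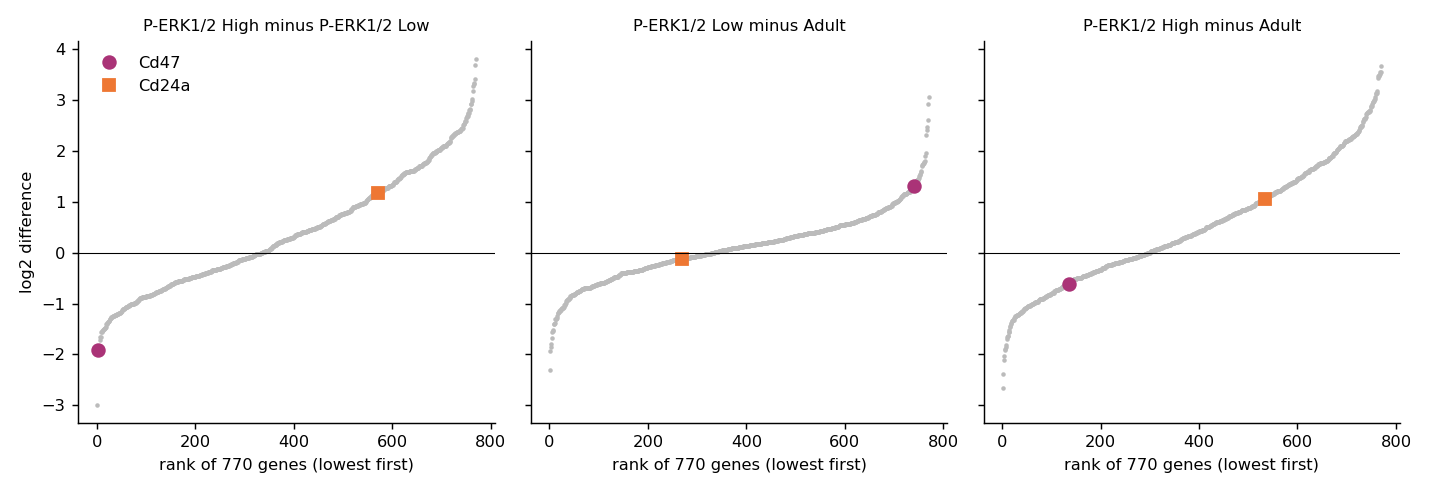
The log2 difference (vertical axis) of each of the 770 genes, ranked from lowest to highest (horizontal axis), in the 3 comparisons; grey points are all genes, the circle is Cd47 and the square Cd24a. In High minus Low, Cd47 (-1.92) lies at the far lower end and Cd24a (1.18) at rank 199 from the top, and in Low minus adult Cd47 (1.31) is 31st from the top.

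The counts behind these values bear on how the Cd47 difference is read. High samples held 72 to 186 counts of Cd47, Low samples 121 to 155 and adult samples 62 to 153, ranges that overlap. Cd24a gave 523 to 1191 counts in High, 82 to 99 in Low and 114 to 370 in adult. The total counts of the High samples were several times those of the Low samples, so a gene with the same count in both took a smaller share of the High libraries. Whether that greater total stands for more RNA in the sample or for more of the panel being expressed was not tested. In adult sample 1 the Cd47 count of 62 was 1.48 times the background, the smallest margin for either gene.

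The sign of the Cd47 difference between High and Low was that of the housekeeping scaling under every scaling that uses panel genes. Its log2 difference was -2.19 with median-of-ratios factors, -2.36 after quantile normalization, -2.94 with equal totals and -2.56 with equal microglia markers, several of which were at background in Low. On unscaled counts it was -0.25 and on counts scaled by the spiked positive controls alone 0.06, that is, no longer lower in High. For Cd24a the difference was 0.91, 0.61, 0.15 and 0.53 in the same order, 2.85 on unscaled counts and 3.15 with the positive controls. Each scaling also moved the median of all genes, from -0.76 with equal totals to 2.14 with the positive controls.

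The values were also measured from that median. Scalings that apply 1 factor per sample leave the distance of a gene from the median gene nearly fixed by construction, so a narrow range over them shows little about these genes. Relative to the median gene, Cd47 stood at -2.18 log2 units as deposited, and between -2.27 and -2.08 over the 7 scalings. Cd24a lay above the median gene by 0.92 as deposited and by 0.71 to 1.01 over the 7 scalings. In Low minus adult, Cd47 lay 1.18 to 1.31 above the median gene and Cd24a between -0.38 and -0.22. In High minus adult, Cd47 lay between -1.04 and -0.92 and Cd24a 0.24 to 0.75 above, the lowest value being that of quantile normalization.

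**Figure D3:**
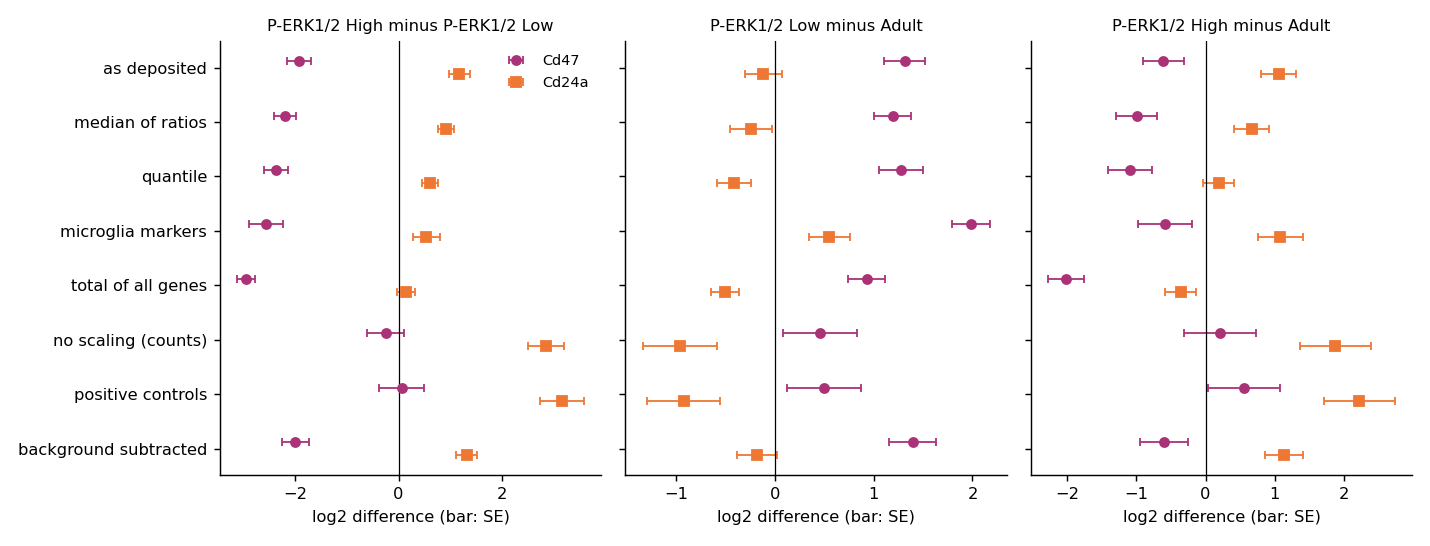
The log2 difference (horizontal axis, bars are SE) of Cd47 (circles) and Cd24a (squares) under 7 scalings and after background subtraction, for the 3 comparisons. Both genes shift together from scaling to scaling: in High minus Low, Cd47 moves from -2.94 to 0.06 and Cd24a from 0.15 to 3.15. A factor per sample moves both alike by construction.

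The ratio of the 2 genes within a sample needs no scaling. Because each probe binds with its own efficiency, only the change of this ratio between samples is read, not its level. The log2 ratio of Cd47 over Cd24a was 0.40, 0.63, 0.65 and 0.56 in P-ERK1/2 Low samples 3, 6, 9 and 12, a mean of 0.56 ± 0.11 (SD, n = 4). In adult samples 1, 4 and 10 it was -1.16, -1.27 and -0.19, a mean of -0.88 ± 0.60 (SD, n = 3). In P-ERK1/2 High samples 2, 5, 7 and 8 it was -2.15, -2.68, -3.06 and -2.31, a mean of -2.55 ± 0.41 (SD, n = 4). No 2 groups overlapped, as for 8.58% of all other genes set over Cd24a, counted in the same order of groups. Since the 2 genes were picked with their levels known, this separation in part restates the choice. The High mean differed from the Low mean by -3.11 log2 units and from the adult mean by -1.67, and the Low mean was 1.44 above the adult mean.

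**Figure D4:**
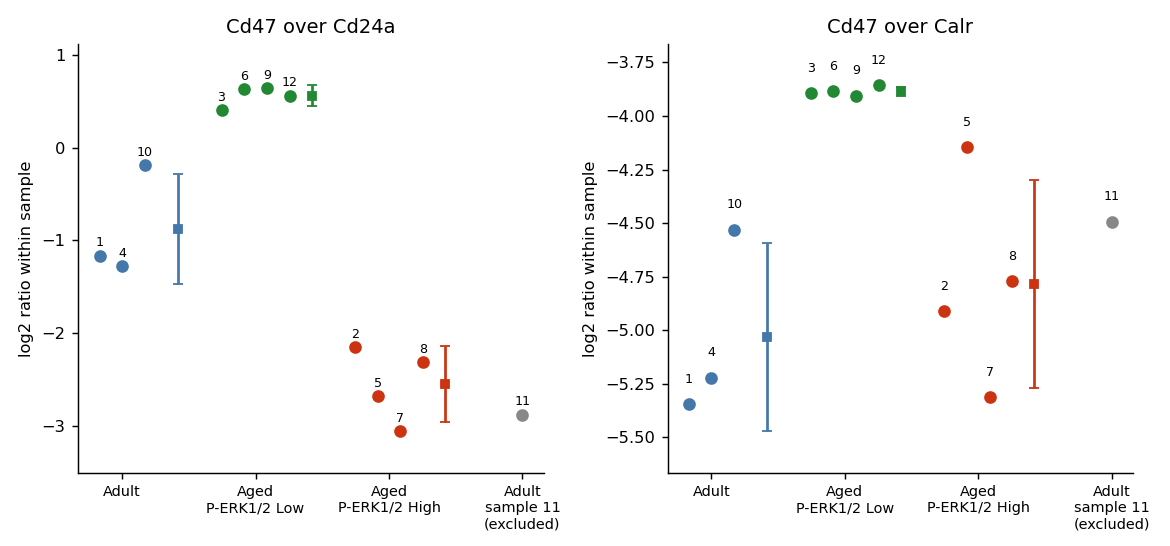
Log2 ratio within each sample (vertical axis) of Cd47 over Cd24a (left) and of Cd47 over Calr (right), by group, with sample numbers above the points; squares with bars are group means and SD. Cd47 over Cd24a separates the 3 groups (Low 0.40 to 0.65, adult -1.27 to -0.19, High -3.06 to -2.15), while for Cd47 over Calr adult and High overlap.

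Calreticulin, encoded by Calr, is a chaperone that acts as an eat-me signal when it reaches the cell surface, opposing CD47. Calr was 6214 to 7306 in Low, 5712 to 6642 in adult and 2352 to 4318 in High, so like Cd47 it was lower in High. The log2 ratio of Cd47 over Calr was -3.89 ± 0.02 (SD, n = 4) in Low, -5.03 ± 0.44 (SD, n = 3) in adult and -4.78 ± 0.48 (SD, n = 4) in High. The Low samples, from -3.91 to -3.86, lay above all adult and all High samples, as for 1.3% of all genes set over Calr, and the other groups overlapped. The difference of the Cd47 to Calr ratio between High and Low (-0.90) was less than that of Cd47 itself. For Cd24a over Calr the High samples (-2.76 to -1.47) lay above all Low samples (-4.55 to -4.30) and all adult samples (-4.34 to -3.95), as for 48.1% of all genes.

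Ptpn6 encodes SHP-1, the phosphatase on which both signals converge inside the phagocyte. It was 336 to 438 in Low, 247 to 578 in High and 222 to 252 in adult. The log2 ratio of Cd47 over Ptpn6 differed by -1.97 between High and Low, by 0.62 between Low and adult and by -1.35 between High and adult, with no overlap in any of the 3, which held in this order for 0.78% of all genes set over Ptpn6. Cd24a over Ptpn6 was higher in High than in Low by 1.14, with no overlap (30.7% of all genes), lower in Low than in adult by a log2 difference of -0.82, again with no overlap (43.2%), and overlapped between High and adult.

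The 13 housekeeping genes were not even between the groups, so Cd47 and Cd24a were also set against single ones. Only 7 of the 13 (Aars, Ccdc127, Csnk2a2, Fam104a, Gusb, Lars and Xpnpep1) were above background in every sample of the 3 groups, and these 7 were used. Cd47 was lower in High than in Low against 7 of 7, by log2 differences from -2.73 with Gusb, a lysosomal enzyme, to -0.70 with Lars, a leucyl-tRNA synthetase, and without overlap for 6. Of all genes outside the 13, 1.85% lay wholly lower in High against at least 6 of the 7. Cd47 was higher in Low than in adult against 7 of 7, by 0.64 (Gusb) to 2.02 (Aars), without overlap for all 7, as were 5.81% of the genes outside the 13. Cd24a was higher in High than in Low against 7 of 7, by 0.38 (Gusb) to 2.41 (Lars), without overlap for 6, a count reached by 26.4% of the other genes. In High minus adult the sign depended on the gene chosen: Cd47 was lower against 4 and higher against 3, from -2.09 (Gusb) to 0.57 (Lars), and Cd24a was higher against 6 and lower against Gusb, from -0.41 to 2.25. Of the remaining 6 housekeeping genes, Supt7l, a subunit of the SAGA complex, stood at 680 to 887 in High and 65.6 to 85.6 in Low, where 1 of 4 samples was above background, and it enters the deposited scaling with the other 12.

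Genes of the wider pathway were taken from 4 lists holding 47 genes, chosen with earlier results of these data known. A gene counted as called where limma, run over all 770 genes, gave p under 0.01 with a log2 difference beyond 1. In High minus Low, 16 of the 47 were called (34.0%), 5 higher and 11 lower. Of all genes 37.8% were called, 28.2% higher and 9.61% lower. In Low minus adult, 8 were called (17.0%), 7 higher and 1 lower, where all genes gave 10.8%, with 8.05% higher and 2.73% lower. In High minus adult, 11 were called (23.4%), 8 higher and 3 lower, where all genes gave 36.9%, with 29.2% higher and 7.66% lower. The number called was thus near the background in High minus Low. With sample 11 counted as adult, 4 pathway genes were called in Low minus adult and 1 in High minus adult, Dock1 (2.22), so all other calls against adult given below for High were lost. In Low minus adult the calls lost were those of Cd72 (1.37), Itgax (1.02), Msr1 (0.66) and Fcgr3 (0.59).

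Among 12 inhibitory receptors and phosphatases, which carry or read the same kind of inhibitory motif as SIRPalpha, 0 rose and 4 fell in High against Low, with a median log2 difference of -0.37 against 0.26 for all genes. Lilrb4a, an inhibitory receptor of myeloid cells, was 6739 ± 770 (SD, n = 4) in Low and 2316 ± 1076 (SD, n = 4) in High, a log2 difference of -1.66 (SE 0.33, limma adjusted p = 0.0013). Fcgr2b, the inhibitory Fc receptor, fell by 1.39 (limma adjusted p = 0.0052). Lyn, the kinase that phosphorylates inhibitory motifs, fell by 1.08, and Cd33, a sialic acid receptor linked to Alzheimer's disease risk, by 1.00. Lyn no longer passed without any one of samples 5, 6, 7 and 12, and of the 8 samples left out in turn, only sample 7 could be dropped with the call of Cd33 kept. The calls of Lyn and Cd33 were also lost with a pseudocount of 20 (-0.97 and -0.81) and after background subtraction (-1.06 and -0.92). Cd72, a C-type lectin that recruits SHP-1, was higher than in adult in both aged groups, by 2.32 in Low (SE 0.16, limma adjusted p = 0.00018) and by 3.49 in High (SE 0.56, limma adjusted p = 0.0006). Its value was 265 in High sample 7 and 1444 to 1636 in the other 3 High samples, and without sample 7 the difference was 4.11. The adult values were 79.1 to 101, with sample 1 not above background. Fcgr2b also rose in Low against adult by 1.06, a call lost without sample 1, 10 or 12, and in High against adult Cd33 fell by 1.69.

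Among 21 eat-me signals and engulfment receptors, 3 rose and 4 fell in High against Low, with a median of 0.28. Axl, a receptor for phosphatidylserine bridged by Gas6, was 913 ± 166 (SD, n = 4) in Low and 5052 ± 1234 (SD, n = 4) in High, a log2 difference of 2.45 (SE 0.25, limma adjusted p = 1.3e-05). The integrin chains Itgav and Itgam, parts of receptors for MFG-E8 and for complement, rose by 1.78 and 1.21. The call of Itgam was lost under each other scaling that uses panel genes, at 0.94 with median of ratios, 0.60 with quantile, 0.57 with microglia markers and 0.18 with totals, and that of Itgav with totals (0.76). Cd36, a scavenger receptor, fell by 1.56, Fcgr1, an activating Fc receptor, by 1.09, Tyrobp, the adaptor of TREM2, by 1.05, and Calr by 1.03. These calls were lost for Cd36 without sample 5 or 12, for Fcgr1 without sample 7, for Tyrobp without sample 7 or 12 and for Calr without sample 5 or 6. The call of Cd36 was also lost after background subtraction (-1.57) and that of Fcgr1 with a pseudocount of 20 (-0.98). Against adult, Cd36 rose by 2.48 and Itgax, the CD11c chain, by 1.41 in Low. Msr1, a scavenger receptor, and Fcgr3, an activating Fc receptor, rose in both aged groups, by 1.71 and 1.37 in Low and by 2.63 and 1.89 in High. In High against adult, Axl rose by 2.74, Itgav by 1.58 and Itgam by 1.33, and Itgb5, an integrin chain that pairs with Itgav, fell by 1.57. Itgb5 was also lower in Low than in adult, without overlap, at a log2 difference of -0.998 (limma adjusted p = 0.0026), just short of a call. The rises of Itgav, Itgam and Fcgr3 in High depended on the scaling: with totals Itgav was at 0.17 and Itgam at -0.08 and with quantile at 0.49 and 0.28, Itgam lost its call with median of ratios (0.94) as well, and Fcgr3 in High was at 0.48 with totals.

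**Figure D5:**
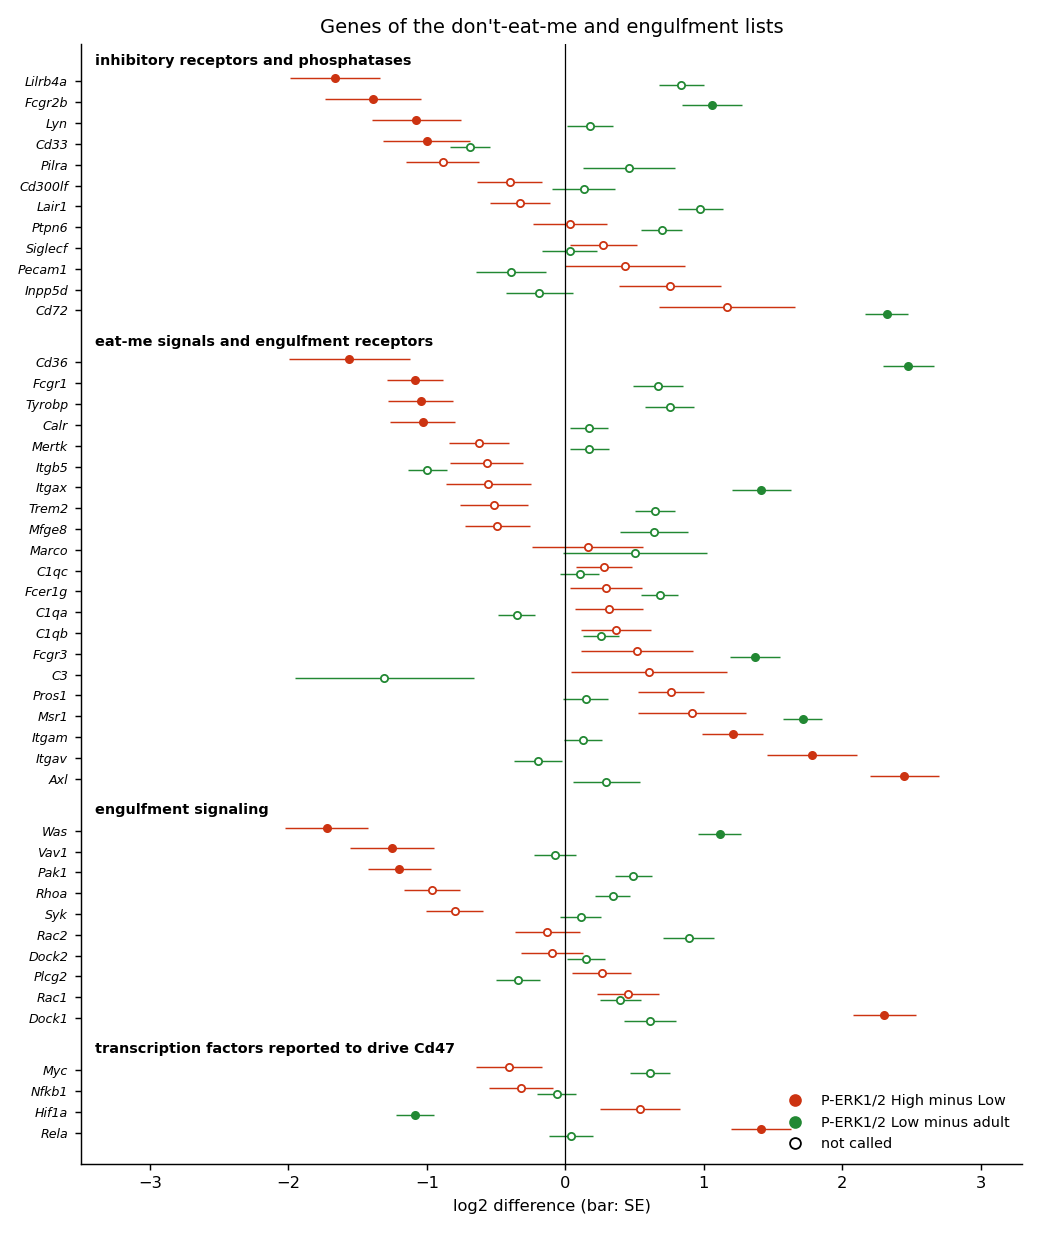
Log2 difference (horizontal axis, bars are SE) of the 47 genes of the 4 lists, in P-ERK1/2 High minus Low and in P-ERK1/2 Low minus adult, sorted within each list by High minus Low; filled points were called and open points were not. In High minus Low, Lilrb4a (-1.66), Cd36 (-1.56) and Was (-1.72) lie lowest in their lists and Axl (2.45), Dock1 (2.30) and Rela (1.41) highest.

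Of 10 genes that pass the engulfment signal to actin, 1 rose and 3 fell in High against Low. Dock1, an exchange factor for Rac1 downstream of phosphatidylserine receptors, was 170 ± 17.1 (SD, n = 4) in Low and 856 ± 177 (SD, n = 4) in High, a log2 difference of 2.30 (SE 0.23, limma adjusted p = 1.3e-05), and it rose by 2.91 in High against adult. Was, which activates actin branching in blood cells, fell by 1.72, Vav1, an exchange factor below Fc receptors, by 1.25, and Pak1, a kinase below Rac, by 1.20. In Low against adult, Was rose by 1.11, and in High against adult Vav1 fell by 1.33; Vav1 lost the first call without sample 5 and the other without adult sample 10. On unscaled counts 10 of the 11 pathway genes that fell in High against Low had the opposite sign, Was being the exception, and with the positive controls all 11 did.

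Of 4 transcription factor genes reported to drive Cd47, Rela, a subunit of NF-kappaB, rose in High against Low by 1.41 and in High against adult by 1.45, where Cd47 was lower or overlapped. Both calls of Rela were lost with quantile (0.86 and 0.62) and with totals (0.39 and 0.04), and the first also with microglia markers (0.77). Hif1a, the subunit of the hypoxia factor that oxygen controls, fell in Low against adult by 1.09, where Cd47 was higher, and was no longer called with microglia markers (-0.42). Myc and Nfkb1 were called in none of the 3 comparisons. Myc had the sign of Cd47 in Low minus adult, at 0.61 (limma adjusted p = 0.017) without overlap. In High minus Low it was at -0.40, with overlapping groups. Nfkb1 was at -0.06 in Low minus adult and -0.32 in High minus Low, both with overlap.

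Markers of other cell types are given beside Cd24a, with the reminder that High lay wholly above Low for 31.3% of all genes. Of all genes 28.2% were called higher and 9.61% lower in High than in Low. Against adult, 29.2% were called higher in High and 7.66% lower. The summed value of 5 markers of immature neurons, cells rich in Cd24a, reached 1562 to 5149 in High, against 1027 to 1473 in Low and 936 to 1307 in adult. Most of that sum in High came from Stmn1, a microtubule regulator also expressed by dividing cells, at 933 to 4823. Of the 5, 2 were called higher in High than in Low (Stmn1 and Dlx1) and 1 lower, Tubb3, a tubulin of neurons, at 28.1 to 38.0 in High and 50.8 to 102 in Low. Tubb3 was above background in only 2 of 4 High and 1 of 4 Low samples, so its direction is not read. Against adult, 2 were likewise called higher in High and 1 lower, with a median log2 difference of -0.30. Dlx1 was at 64.5 to 116 in High and 12.3 to 37.3 in Low, where the background stood at 26.1 to 39.5 in High and at 69.2 to 117 in Low, so its detection was not compared between the groups. Dlx2 was above background in no sample of any group. Of 7 neutrophil markers, Ly6g, which the sort gated out, and Fpr1 were above background in no High sample, 4 were above it in all 4 High samples, and the sums were 416 to 1139 in High and 451 to 527 in Low. Of the 7, 2 were called higher in High than in Low and 0 lower, among them Trem3, a receptor of myeloid cells, at 84.0 to 367 in High and 16.1 to 41.0 in Low, above background in no Low sample. Of 7 B cell markers, Ms4a1 and Fcrla were above background in no High sample, and the sums of 911 to 1738 in High and 903 to 1171 in Low came mostly from Blnk. In the same list Blk, a kinase of B cells, was at 103 to 261 in High and 28.1 to 71.2 in Low, and Tcl1 at 69.4 to 168 and 23.7 to 49.1. Both were called higher in High but were above background in no Low sample. Summed markers of astrocytes (1412 to 2143 in High, 581 to 833 in Low), endothelium (622 to 1257 and 207 to 312), border and blood monocytes (970 to 2552 and 291 to 484), neurons (379 to 634 and 217 to 287) and T and NK cells (306 to 1148 and 156 to 224) were also higher in High on the deposited scaling, without overlap, and those of oligodendrocytes (331 to 475 and 414 to 543) overlapped. In Low, 10 of 10 neuron markers, 10 of 10 T and NK cell markers, 5 of 6 endothelial, 4 of 6 astrocyte and 3 of 5 monocyte markers were above background in no sample. The Low sums of neurons, T and NK cells and endothelium are therefore largely background, which on this scale was higher in Low than in High. The astrocyte markers Gja1 (325 to 372) and Sox9 (88.3 to 230) were above background in all 4 Low samples. The monocyte marker Cd74 (115 to 294) was above it in 3 of 4. The part of these cell types in the level of Cd24a was not tested.

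The genes whose profile was most like that of Cd47 were sought by Pearson's r of log2 values over the 11 samples of the 3 groups, which share the scaling and the group structure, so r is a description. For Cd47 they were Csf1r, the receptor on which microglia depend for survival (0.97), Fcgr1 (0.97), Bcl2a1a, an anti-apoptotic factor (0.96), the cytokine gene Tnf (0.96) and Tyrobp (0.95). Csf1r was 2602 to 2937 in Low, 1655 to 2053 in adult and 1195 to 1838 in High. The most opposed to Cd47 were Cflar, an inhibitor of caspase activation (-0.95), Optn, an autophagy receptor (-0.94), and Tmem119, a microglia marker (-0.92). With median-of-ratios factors their ranks among the most opposed were 59, 30 and 12, while the 5 most alike stayed within the first 6. Tmem119 was 54.2 to 82.0 in Low, where 1 of 4 samples was above background, 134 to 153 in adult and 175 to 510 in High.

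For Cd24a the most alike were Arid1a, a chromatin remodelling subunit (0.98), Vamp7, a vesicle fusion protein (0.98), Egfr, a growth factor receptor upstream of ERK (0.97), Ccni, a cyclin family member (0.97), and Msn, a linker of membrane and actin (0.97). With median-of-ratios factors their ranks were 5, 16, 2, 3 and 19. Among the most opposed to Cd24a were Syk, a kinase below activating receptors (-0.95), and Grn, the gene of progranulin (-0.94), at ranks 42 and 60 with those factors. Cd47 and Cd24a correlated at -0.75 with each other over the 11 samples and at -0.03 once each group's mean was removed, so that their opposition lay between the groups and not among samples of a group.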

How the data were processed

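RNA of 12 samples was measured on the nCounter Neuroinflammation panel. The deposited signal values were made by the authors in nSolver (version not given in the sources used here); they equal whole counts times one factor per sample, with the geometric mean of the 13 housekeeping genes at 173 in all samples. After division by that factor 99.8% of values were whole to within 0.1. Of 784 rows, 770 are genes and 14 are control probes; 0 columns were left unmapped. Sample 11 was left out of the comparisons and added as an alternative. Differences of log2(value + 1) were fitted with limma 3.58.1 (R 4.3.3), without a filter and with the 2 groups compared only. A pathway gene was called at p under 0.01 and a log2 difference beyond 1, the study's thresholds; p-values were adjusted over 770 genes by the method of Benjamini and Hochberg. Because of the pseudocount, differences of low genes are understated. On simulated data with 200 of 770 genes changed by 2 log2 units, 99.5% were recovered for High against Low and 97.5% for each comparison with adult, with 0, 1 and 1 false calls. The simulation took its spread from the Low or adult group alone, with known scaling factors and as many rises as falls. It therefore does not measure errors from the scaling or from the spread of the High samples.

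The members, gene lists and tests were chosen with earlier results of these data known. Named genes were Cd47 and Cd24a, the 5 most alike and 3 most opposed to each, the called members of each pathway list (3 per direction where more than 6 were called), Calr and Ptpn6, and housekeeping genes; 1 of the genes most opposed to Cd24a is not reported here; Ptx3 and Bbc3, the marker genes and Myc and Nfkb1 were named after their values were seen. Count intervals are exact Poisson at 95% and cover counting error only. Settings varied were the pseudocount (0.1 and 20), a minimum mean of 50, other scalings, a spread shared by 3 groups, all 4 adult samples, an adjusted p under 0.05, and leaving out each sample; scaling by positive controls, background subtraction and the restriction to housekeeping genes above background in every sample were added after seeing the data. Gene positions are from RefSeq (GRCm38.p6).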

Additional observations from a re-analysis of the deposited data

Results flagged for a closer look

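The lowest Cd47 value in P-ERK1/2 High, 80.9 in sample 7, stood apart from the other 3 samples, by a gap of 0.830 of the group's whole range. The log2 ratio of Cd47 over the 13 housekeeping genes, the same measurement on another scale, was -1.10 in that sample, also apart from the rest. The log2 ratio of Cd47 over Ptpn6 in P-ERK1/2 Low was 0.56 in sample 12, above the other 3 samples. Chance alone flags about 1 in 20 groups. Without sample 7, Cd47 in High minus Low was -1.73.

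Adult sample 11, which entered no main comparison, had the highest Cd24a value of all 12 samples, 976, which was 2.26 times the highest kept adult sample, while its Cd47 value of 133 lay within the range of the High samples. Its log2 ratio of Cd47 over Cd24a was -2.88, also within the range of High. Its total count of 1464449 was near that of the deepest High sample, its positive controls gave a geometric mean of 286 counts against 954 to 1460 in the other samples, and its immature neuron markers summed to 7605. With all 4 adult samples, Cd24a in High minus adult was 0.67 and the groups overlapped. The part of the sample's quality in these values was not tested.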

How the results depend on the processing

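No paired analysis was made, because the sources used here do not state whether High and Low samples came from the same mice. The replicate numbers are running sample numbers and carry no information on pairing. The planned count-based tests were not run, since the table mixes scaled and unscaled rows. Cd47 in High minus Low was -2.36 (quantile), -2.94 (totals), -2.56 (microglia markers), -0.25 (unscaled) and, reversed, 0.060 (positive controls), and in Low minus adult 0.93 (totals), 1.98 (microglia markers), 0.46 (unscaled) and 0.50 (positive controls). In High minus adult it was -1.09 (quantile), -2.02 (totals), 0.21 (unscaled) and 0.56 (positive controls). Cd24a in High minus Low was 0.91 (median of ratios), 0.61 (quantile), 0.15 (totals), 0.53 (microglia markers), 2.85 (unscaled) and 3.15 (positive controls), and in Low minus adult -0.42 (quantile), -0.51 (totals), 0.55 (microglia markers), -0.97 (unscaled), -0.93 (positive controls) and -0.50 (all 4 adult samples). In High minus adult it was 0.67 (median of ratios), 0.19 (quantile), -0.36 (totals, reversed), 1.88 (unscaled), 2.23 (positive controls) and 0.67 (all 4 adult samples). Leaving out single samples, Cd47 ranged from -2.01 to -1.73, from 1.12 to 1.52 and from -0.80 to -0.40 in High minus Low, Low minus adult and High minus adult, and Cd24a from 1.08 to 1.22, from -0.25 to 0.06 and from 0.93 to 1.23.

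Calls among the 47 pathway genes in High minus Low were 16 (5 higher) as deposited, 18 (4 higher) by median of ratios, 20 (3) by quantile, 24 (3) by microglia markers, 27 (2) by totals, 32 (32) unscaled and 34 (34) by positive controls. In Low minus adult they were 8 (7 higher), 7 (5) by median of ratios, 8 (6) by quantile, 7 (4) by totals, 22 (22) by microglia markers, 11 (2) unscaled, 10 (2) by positive controls and 4 (3) with all 4 adult samples. In High minus adult they were 11 (8 higher), 14 (7) by median of ratios, 19 (4) by quantile, 31 (4) by totals, 19 (19) unscaled, 22 (22) by positive controls and 1 (1) with all 4 adult samples. Leaving out single samples gave 11 to 16, 8 to 10 and 10 to 14 calls. Reversed on unscaled counts and with positive controls in High minus Low were Calr (0.65, 0.96), Cd33 (0.65, 0.95), Cd36 (0.12, 0.43), Fcgr1 (0.58, 0.89), Fcgr2b (0.29, 0.60), Lilrb4a (0.016, 0.33), Lyn (0.59, 0.90), Pak1 (0.47, 0.77), Tyrobp (0.63, 0.94) and Vav1 (0.42, 0.73), with positive controls also Was (0.25), and with totals Itgam in High minus adult (-0.081). Of the remaining values for called pathway genes, 559 kept their call and 84 kept their sign but lost it. Low samples have fewer counts than High samples, which limits low genes there.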
